A study of Mus musculus with 6 samples.

Results

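The BCL2 family and the death receptor gene Fas were followed in medullary thymic epithelial cells (mTEC), the thymic stromal cells that display tissue antigens to developing T cells. The set held 10 genes chosen by name: Bcl2, Bcl2l1, Mcl1, Bax, Bak1, Bbc3, Pmaip1, Bcl2l11, Bid and Fas. All 10 were found among 43432 gene IDs in the deposited raw count table and all 10 were among the 17172 genes with enough counts to be tested. The libraries came from C57BL/6 mice at 4 weeks of age, 3 labelled Copa+/+ (WT) and 3 labelled CopaE241K/+ (MUT), with no treatment. Copa encodes a subunit of the COPI coat, which shapes vesicles that return from the Golgi to the endoplasmic reticulum; MUT mice carry 1 copy of the E241K allele. The labels do not say whether a library came from 1 animal or a pool, so p-values speak only to the spread among these 6 libraries, which may be technical.

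Cells commit to apoptosis through the mitochondrial route when the effector proteins BAX and BAK form pores in the outer mitochondrial membrane. Anti-apoptotic relatives such as BCL2, BCL-XL and MCL1 hold the effectors in check, and BH3-only proteins such as BIM, PUMA, NOXA and BID bind the anti-apoptotic proteins or trigger the effectors directly. Death receptors such as FAS start another route at the cell surface, where FADD and caspase-8 assemble, and BID carries that signal to mitochondria. In the medulla, mature mTEC turn over quickly and are replaced from precursors. Much of the family is controlled after transcription, by protein turnover, phosphorylation and binding partners, which read counts do not measure.

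Library totals ran from 19934513 to 23366238 counts. Counts were scaled to counts per 1000000 (CPM) with TMM-adjusted library sizes, and genotypes were compared as MUT minus WT with edgeR's quasi-likelihood test, adjusted over all genes tested. The mTEC genes were present in every library: Aire, the regulator of antigen display, lay between 929 and 1563 CPM, and the MHC class II gene H2-Aa between 5557 and 9619 CPM. Of 13 mTEC markers 9 had a fitted value below 0 in MUT, with 0 called and a median of -0.36 on the log2 scale. Epcam and Ly6d, chosen after their values were seen, were lower in every MUT library than in any WT library. That held for 2 of the 13, beside 3.96% of all genes tested, and 0 of 13 lay higher without overlap, beside 5.39%. Scaled to library totals alone the genotypes overlapped for Epcam. Epcam averaged 674 and 484 CPM in WT and MUT (-0.48, SE 0.28). Ly6d averaged 139.98 and 51.3 CPM (-1.45, SE 0.40, edgeR unadjusted p = 0.00325, adjusted p = 0.999875). Markers of other cells were counted too. The 14 thymocyte and T cell markers summed to 217 to 592 CPM in WT and 127 to 903 CPM in MUT. They were led by Cd4 and Cd3e, and the highest sums were in WT 2 and MUT 2. Single markers did not all follow the sum. Cd3e had 129 CPM in WT 1 against 55.2 CPM in WT 2, and Lck 0.23 against 123 CPM. The 12 dendritic cell and macrophage markers summed to 662 to 1215 and 575 to 1054 CPM, led by Lyz2 and Cd68. The 7 B cell markers summed to 213 to 344 and 193 to 275 CPM, led by Blnk and Cd79b. Most of that sum was Blnk, which averaged 223 CPM, while Cd79b, the next highest, averaged 10.8 CPM. The sum is therefore no measure of the other B cell markers. The 10 fibroblast and endothelial markers summed to 109 to 203 and 102 to 195 CPM, led by Dcn and Pdgfrb. Markers with 0 counts in at least 1 library were Rag2, Ptcra, Fcgr1, Siglech, Clec9a, Pax5, Vpreb3, Col1a2, Lum and Kdr. In such bulk samples, fewer cells of a type and less RNA per cell cannot be told apart.

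The promoters of 3 genes are shown because Fas and Bcl2l11 had the largest fitted differences between genotypes among the 10 genes, and because Bax is a textbook p53 target whose upstream sequence held a p53 half-site. RefSeq entries on GRCm38.p6 were used for 9 of the 10 genes, with 14 start sites in all. No entry was used for Pmaip1, and whether it has one is not reported here. Each line gives the 250 bases before the start, 5′ to 3′ on the gene's strand, with motif matches in capitals. Fas is on the plus strand at chr19:34290409-34290658, Bax on the minus strand at chr7:45466899-45467148, and Bcl2l11 on the plus strand at chr2:128125788-128126037.
Fas: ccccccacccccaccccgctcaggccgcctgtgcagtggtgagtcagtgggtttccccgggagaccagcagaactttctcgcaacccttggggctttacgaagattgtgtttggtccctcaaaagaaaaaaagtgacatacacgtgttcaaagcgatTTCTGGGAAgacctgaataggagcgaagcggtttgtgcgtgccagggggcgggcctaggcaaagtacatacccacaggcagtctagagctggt
Bax: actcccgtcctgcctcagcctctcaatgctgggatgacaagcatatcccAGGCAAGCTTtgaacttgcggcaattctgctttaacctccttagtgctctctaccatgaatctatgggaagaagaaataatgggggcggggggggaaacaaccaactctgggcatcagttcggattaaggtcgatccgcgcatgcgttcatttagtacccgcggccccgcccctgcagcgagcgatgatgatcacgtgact
Bcl2l11: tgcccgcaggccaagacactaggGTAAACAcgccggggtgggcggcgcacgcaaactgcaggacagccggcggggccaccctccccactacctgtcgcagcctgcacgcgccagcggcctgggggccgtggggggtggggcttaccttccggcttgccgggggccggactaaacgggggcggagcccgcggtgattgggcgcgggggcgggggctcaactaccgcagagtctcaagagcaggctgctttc
The capitals in Fas match TTCNNNGAA, the GAS element read by STAT factors, and lie 93 to 85 bases before the start. Those in Bax match the p53 half-site consensus, 201 to 192 bases before the start. Those in Bcl2l11 match the forkhead core TGTTTAC on the opposite strand, 227 to 221 bases before the start. Both strands were searched. The GAS letters occurred before 1 of the 14 starts and in 7.02% of all 32851 RefSeq promoters of that length, the p53 half-site before 1 and in 7.13%, and the forkhead core before 2 and in 3.17%. The other forkhead match lay before a Bbc3 start. Another Bcl2l11 start, with its upstream bases at chr2:128127325-128127574, had no match to any motif searched. The interferon-stimulated response element, searched as GAAANNGAAA, was before none of the 14 and in 2.98% of all promoters, and no motif overlapped another in the 3 sequences printed. A match is a description of the letters and not of binding.

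None of the 10 genes differed between the genotypes past the threshold. In edgeR's quasi-likelihood test 0 of 10 had an adjusted p under 0.05, and 0 of 17172 genes did (0%); the lowest adjusted p of any gene was 0.999875. At an unadjusted p under 0.05 the count was 0 of 10, against 3.48% of all genes tested. DESeq2 and limma-voom also called 0 of the 10, and 0 had an unadjusted p under 0.05 in either. Fitted log2 fold changes were below 0 for 7 of the 10 and above 0 for 3, with a median of -0.26, beside 50.6% below 0 and a median of -0.01 over all genes tested. The groups of 3 libraries did not overlap for 1 of the 10, Fas, which was lower in MUT, where 3.96% of all genes tested did not overlap in that direction. Non-overlap in the other direction was seen for 0 of the 10 and for 5.39% of all genes, and in either direction for 9.35%.

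**Figure D1:**
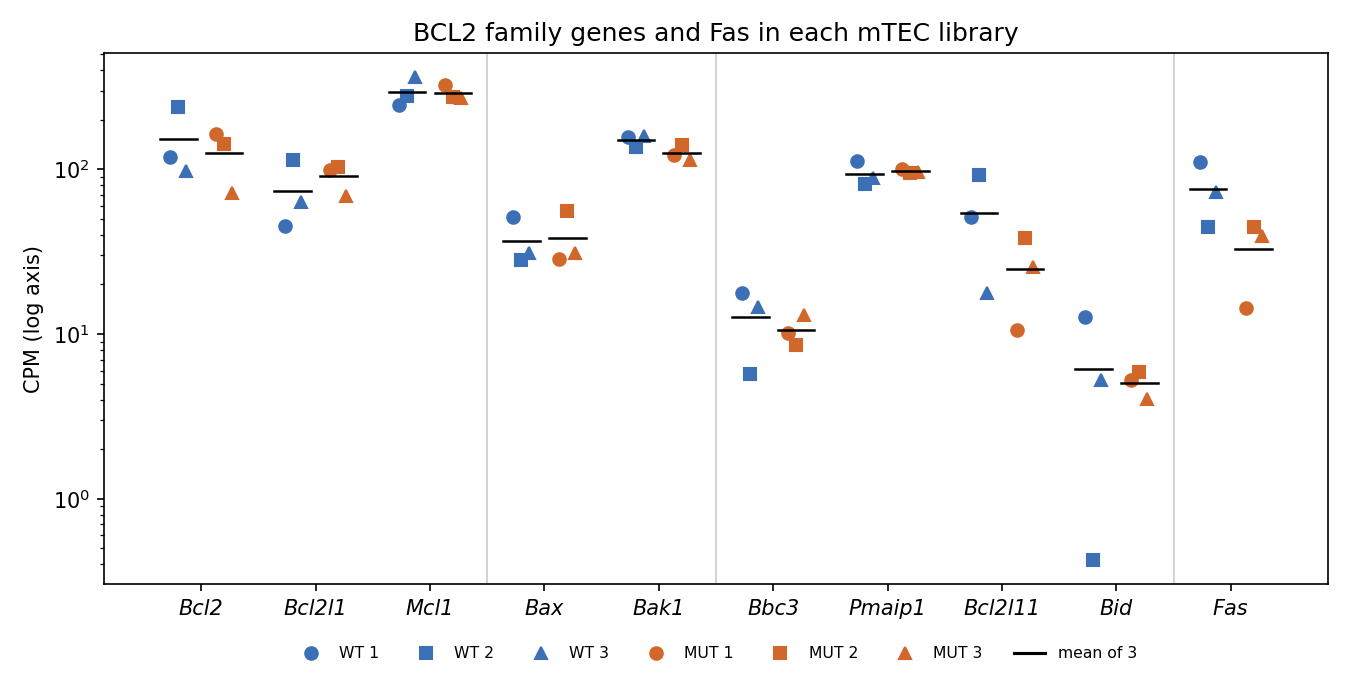
CPM on a log axis for the 10 genes in each library, WT in blue and MUT in orange, with a marker shape for each replicate number and a black line at the mean of 3 libraries. Grey lines separate the anti-apoptotic genes, the effectors, the BH3-only genes and Fas; the MUT points of Fas reach up to the lowest WT point, and Bid in WT 2 lies far below every other library.

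Mcl1, which encodes a short-lived anti-apoptotic protein that binds BIM and NOXA, was the most highly expressed of the 10 per exon length. Its levels were 247, 279 and 363 CPM in WT 1, 2 and 3 and 323, 277 and 269 CPM in MUT 1, 2 and 3. All 3 MUT values lay inside the WT range. The means were 296 ± 59.6 CPM in WT and 289.8 ± 29.3 CPM in MUT (SD, n = 3 each), a log2 fold change of -0.03 (SE 0.31), and the 95% interval of the difference, -0.70 to 0.63, leaves out a 2-fold change in either direction.

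Bcl2, the founding anti-apoptotic gene and a survival factor of mature lymphocytes, measured 118, 239.8 and 97.1 CPM in WT and 164, 143 and 72.1 CPM in MUT. WT 2 was the highest and MUT 3 the lowest library, and the genotypes overlapped. MUT minus WT gave a log2 fold change of -0.26 (SE 0.46, 95% interval -1.27 to 0.74), and it was 0.22 without WT 2. WT 2 held 592 CPM of thymocyte markers and MUT 2 held 903, against 127 to 357 in the other 4 libraries; their part in the Bcl2 values was not tested.

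Bcl2l1, which encodes BCL-XL, measured 45.6, 114 and 63.5 CPM in WT and 99.3, 104 and 68.5 CPM in MUT. WT 1 and WT 3 were the lowest libraries and WT 2 the highest, so that the WT range enclosed all 3 MUT values. On the log2 scale the difference was 0.29 (SE 0.47, 95% interval -0.73 to 1.31), with 0.034 without WT 1 and 0.72 without WT 2. Within each library the ratio of Bcl2 to Bcl2l1 per kb of exon came to 1.30, 1.06 and 0.77 in WT and 0.83, 0.69 and 0.53 in MUT. The genotypes overlapped between MUT 1 and WT 3, which have different numbers. At each number the ratio was lower in MUT than in WT. This order was picked after its values were seen and was not tested. The labels do not say that a number marks a shared batch.

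Among the effectors, Bak1 was expressed more than Bax per kb in all 6 libraries. Bak1, whose protein sits in the mitochondrial membrane, measured 156, 137 and 159 CPM in WT and 123, 141 and 114 CPM in MUT. MUT 1 and MUT 3 lay below every WT library and MUT 2 lay inside the WT range. Its log2 fold change was -0.26 (SE 0.34, 95% interval -1.01 to 0.49), and it stayed between -0.35 and -0.20 when any 1 library was left out. Exons of Ggnbp1 on the opposite strand cover 18.2% of the exonic bases of Bak1, and whether reads were counted by strand is not stated in the sources used here, so reads could not be assigned with certainty there. Ggnbp1 had 7 to 273 counts, against 2603 to 3604 for Bak1.

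Bax, the effector that moves from the cytosol to mitochondria, measured 51.5, 28.0 and 31.2 CPM in WT and 28.6, 55.8 and 31.0 CPM in MUT. A single library of each genotype was high, WT 1 and MUT 2, and the other 4 lay close together. The difference came to a log2 fold change of 0.06 (SE 0.60, 95% interval -1.24 to 1.36). The share of the effector sum that came from Bak1, per kb, came to 66.5%, 76.3% and 76.9% in WT and 73.8%, 62.3% and 70.7% in MUT.

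Pmaip1, which encodes the BH3-only protein NOXA, a partner of MCL1, had the smallest SD of log2 CPM of the 10. It measured 113, 81.1 and 88.1 CPM in WT and 100.5, 94.6 and 96.8 CPM in MUT. Every MUT library lay inside the WT range. The fitted log2 fold change was 0.05 (SE 0.39, 95% interval -0.79 to 0.89), which also leaves out a 2-fold change, and the 6 libraries spanned a 1.39-fold range. The ratio of Mcl1 to Pmaip1 per kb came to 1.76, 2.75 and 3.29 in WT and 2.57, 2.34 and 2.22 in MUT, all 3 inside the WT range.

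Bcl2l11, which encodes BIM, a BH3-only protein known for its part in the deletion of self-reactive thymocytes, measured 51.5, 92.9 and 17.7 CPM in WT and 10.6, 38.3 and 25.6 CPM in MUT. MUT 1 was the lowest library and WT 2 the highest, but WT 3 lay below MUT 2 and MUT 3. MUT minus WT gave a log2 fold change of -1.12 (SE 0.73, 95% interval -2.71 to 0.47, edgeR unadjusted p = 0.15, adjusted p = 0.999875). It was -0.49 without WT 2, the library with the highest thymocyte sum of WT, and -1.59 without MUT 2, which had the highest of MUT. Without both it was -0.95. Whether thymocytes contributed to Bcl2l11 was not tested.

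Bbc3, which encodes PUMA, a direct p53 target, was low, at 17.8, 5.75 and 14.5 CPM in WT and 10.1, 8.57 and 13.0 CPM in MUT. The 3 MUT libraries lay between the lowest and the highest WT library. On the log2 scale the difference was -0.26 (SE 0.99, 95% interval -2.41 to 1.90), an interval too wide to leave out a 4-fold change in the downward direction.

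Bid, the link from death receptors to mitochondria, was the least expressed of the 10 and had 221, 9 and 119 counts in WT and 112, 123 and 112 counts in MUT. In CPM that came to 12.7, 0.42 and 5.24 in WT and 5.28, 5.89 and 4.05 in MUT. WT 1 and WT 2 were the 2 extremes, and the MUT libraries differed little from each other. Its log2 fold change was -0.27 (SE 1.495, 95% interval -3.53 to 2.99). It was 0.83 without WT 1 and -0.83 without WT 2, so no direction can be given. Exons of Bcl2l13 on the opposite strand cover 17.7% of the exonic bases of Bid, and Bcl2l13 had 458 to 3281 counts, with the highest in MUT 2. For Bcl2, exons of D630008O14Rik on the opposite strand cover 6.09% of the exonic bases, with 26 to 163 counts in that gene.

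Fas, the receptor for FAS ligand and a known p53 and interferon target, had the lowest unadjusted p of the 10. It measured 111, 44.5 and 73.2 CPM in WT and 14.4, 44.5 and 39.6 CPM in MUT. The lowest WT library, WT 2, and the highest MUT library, MUT 2, were nearly equal, at 44.55 and 44.45 CPM from 946 and 928 counts. MUT 1, with 306 counts, was the lowest by a wide margin. The means were 76.2 ± 33.3 CPM in WT and 32.8 ± 16.1 CPM in MUT (SD, n = 3 each), 2.32-fold lower in MUT. The difference came to a log2 fold change of -1.21 (SE 0.59, 95% interval -2.51 to 0.08, edgeR unadjusted p = 0.063, adjusted p = 0.999875), within the spread between libraries by this test. Of the 13 mTEC markers 9 had a fitted value below 0 in MUT, with Epcam and Ly6d among them, and 4 above 0, with Aire among them. The part of these markers in the Fas values was not tested.

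The separation of the genotypes for Fas rested on the scaling. With DESeq2 size factors MUT 2 lay above WT 2, at 936 against 922 normalised counts, and scaled to library totals alone MUT 3 lay above WT 2, at 46.9 against 41.3 CPM. The direction held in all 13 alternatives. The fitted log2 fold change was -0.85 without WT 1, the highest library, and -0.86 without MUT 1, the lowest, against -1.51 without MUT 2. Leaving out both libraries numbered 2 was chosen after seeing the data. For Fas these were the lowest WT and the highest MUT library, so their removal had to widen the difference. It then came to -1.79 (edgeR unadjusted p = 0.029, adjusted p = 0.999974). Both libraries also had the highest thymocyte sum of their genotype, and the part of thymocytes in the Fas values was not tested.

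**Figure D2:**
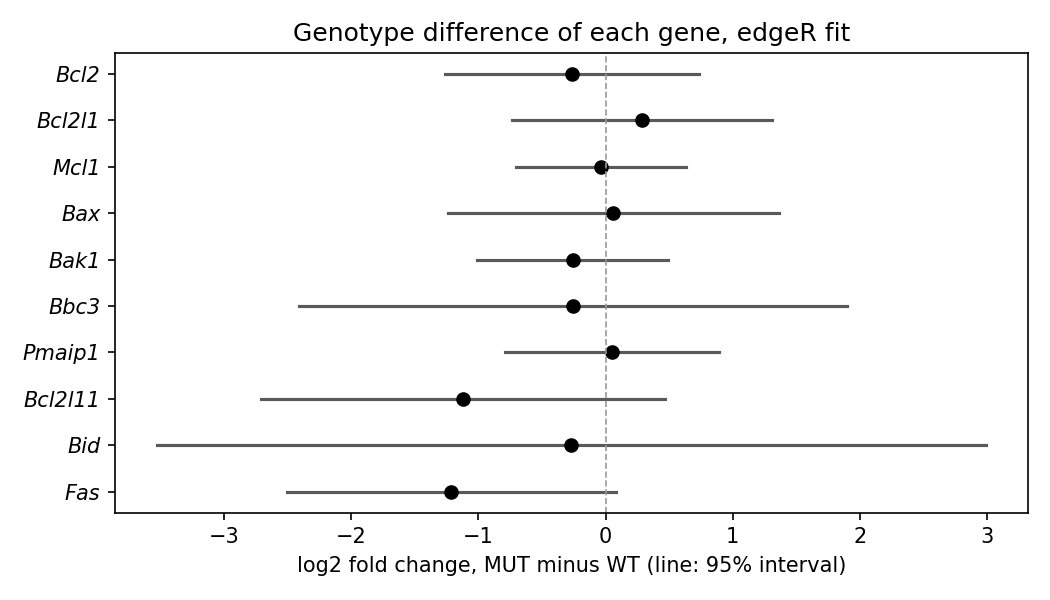
Fitted log2 fold change, MUT minus WT, for each of the 10 genes with its 95% interval from edgeR's quasi-likelihood fit. Every interval crosses 0; those of Mcl1 and Pmaip1 stay within 1 of it on the log2 scale, and that of Bid runs from -3.53 to 2.99.

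Levels of different genes were compared per exon length, as CPM per kb of merged exon. The order over the 6 libraries was Mcl1 (85.8 ± 12.3), Bak1 (57.5 ± 7.32), Pmaip1 (34.99 ± 3.94), Fas (26.4 ± 16.2), Bax (23.9 ± 7.95), Bcl2l1 (17.96 ± 5.87), Bcl2 (15.2 ± 6.45), Bbc3 (5.48 ± 2.04), Bcl2l11 (4.91 ± 3.74) and Bid (1.58 ± 1.13), as mean CPM per kb ± SD, n = 6. Mcl1 lay above Bak1, and Bak1 above Pmaip1, in 6 of 6 libraries with no overlap of their ranges. Bcl2 was above Bbc3 in 6 of 6 libraries, though their ranges overlapped. The other neighbours in the order changed places in at least 1 library: Pmaip1 was above Fas in 4 of 6, Fas above Bax in 3 of 6 and Bcl2l11 above Bid in 5 of 6. Mcl1 stood higher than 97.5% of all genes tested and Bid higher than 26.6%. The libraries were made from amplified cDNA, and with the longest transcript as the length Bcl2l1 rose from 17.96 to 32.1 CPM per kb, Bax passed Fas and Bcl2l11 passed Bbc3.

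Mcl1 supplied most of the anti-apoptotic sum in every library. Its share of the summed CPM per kb of Mcl1, Bcl2 and Bcl2l1 came to 76.0%, 61.6% and 81.3% in WT and 70.5%, 67.9% and 77.5% in MUT. The share of Bcl2 came to 13.6%, 19.7% and 8.12% in WT and 13.3%, 13.1% and 7.75% in MUT. In both genotypes the library with the smallest share of Mcl1 was the one numbered 2.

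The balance between the classes overlapped between genotypes. The ratio of the anti-apoptotic to the effector sum came to 0.98, 1.77 and 1.52 in WT and 1.94, 1.27 and 1.51 in MUT. The ratio of the anti-apoptotic to the BH3-only sum came to 1.60, 3.01 and 3.05 in WT and 3.02, 2.64 and 2.21 in MUT. WT 1 was the lowest library in both ratios, with the smallest anti-apoptotic sum (95.2 CPM per kb, against 102 to 134 in the others) and the largest effector and BH3-only sums (97.6 and 59.5 CPM per kb). The BH3-only sum was 44.4, 45.1 and 45.9 CPM per kb in the MUT libraries. Pmaip1 supplied 69.2%, 67.4% and 75.4% of that sum in WT and 82.9%, 76.8% and 77.2% in MUT, which did not overlap. That separation rested on the merged exon length. With the longest transcript as the length, the share in MUT 2 lay just below that in WT 3 and the genotypes overlapped. This share was singled out after its values were seen and has no test.

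**Figure D3:**
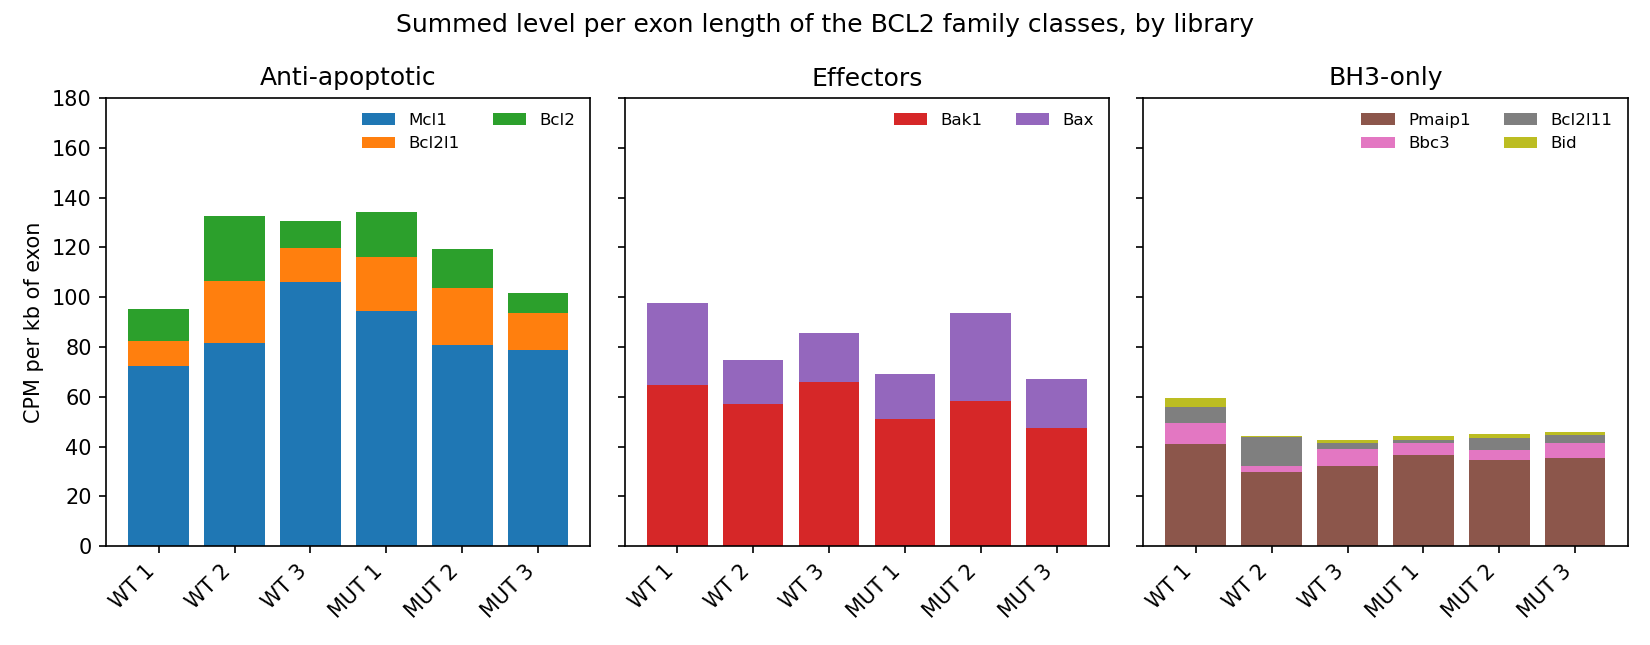
Stacked CPM per kb of exon for the anti-apoptotic genes, the effectors and the BH3-only genes, 1 bar per library. Mcl1, Bak1 and Pmaip1 form the largest part of their class in all 6 libraries, and the height of the anti-apoptotic bar runs from 95.2 in WT 1 to 134 in MUT 1.

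The rest of the machinery was read from 7 gene lists, none of which held a gene with an adjusted p under 0.05 in edgeR's test. Of their 83 genes 79 were tested, 26 with a fitted value above 0 and 53 below, and their median was -0.26 on the log2 scale. The groups did not overlap for 11 of the 79, 6 higher and 5 lower in MUT, beside 5.39% higher and 3.96% lower over all genes tested. At an unadjusted p under 0.05 there were 6, 3 higher and 3 lower, where 1.62% of all genes tested were higher and 1.85% lower. The genes tested that are named here for not overlapping but are outside the naming rule (Bcl2a1a, Casp2, Mlkl, Ccng1, Phlda3 and Perp) were chosen after their values were seen.

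Other anti-apoptotic relatives gave 1 of 4 above 0 and a median of -0.67. The leukocyte-enriched genes Bcl2a1a and Bcl2a1d had log2 fold changes of -0.83 (SE 1.37) and -1.21 (SE 1.08), the latter -0.64 without WT 2, but they are near-identical copies whose reads the counting could have divided. Bcl2l2, which encodes BCL-W, had 0.79 (SE 0.79), or 0.45 without WT 1 and 1.28 without WT 3. Bcl2l10 had 0 counts in all 6 libraries.

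Other effector, BH3-only and BCL2-like genes gave 5 of 11 above 0 and a median of -0.24, and 2 of 11 did not overlap, both higher in MUT, beside 5.39% of all genes tested. Bcl2l13, a mitochondrial BCL2-like gene with a part in mitophagy, measured 26.3, 37.9 and 31.3 CPM in WT and 49.5, 157 and 45.4 CPM in MUT. All MUT libraries were above all WT libraries, and MUT 2 stood far above the rest. MUT minus WT gave a log2 fold change of 1.40 (SE 0.59, edgeR unadjusted p = 0.035), and 0.57 without MUT 2. Bad, a BH3-only gene whose protein growth factor signals silence, had 8.16, 4.66 and 9.55 CPM in WT and 14.1, 50.5 and 14.3 CPM in MUT, again highest in MUT 2, a fitted difference of 1.82 (SE 0.92) on the log2 scale that became 0.92 without MUT 2. Bnip3l, the mitophagy receptor NIX and the most counted gene of this list, had -0.36 (SE 0.40).

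Death receptors and their ligands gave 3 of 9 above 0 and a median of -0.73, and the median was 0.02 without WT 1. No gene of this list had genotypes that did not overlap. The cytokine gene Tnfsf15 had a log2 fold change of -3.39 (SE 1.27), which came from 220.8 CPM in WT 2 against 2.17 to 14.3 in the other 5 libraries, and was -0.22 without WT 2. The receptor gene Ngfr had 163 CPM in WT 1 against 4.71 to 22.6 elsewhere, so that -2.12 (SE 1.14) became 0.96 without it. Tnf, the most counted ligand, had 0.11 (SE 0.65), with 34.6 to 241 CPM in MUT alone. Fasl, the gene of the FAS ligand, had 0, 42 and 85 counts in WT and 0, 9 and 4 in MUT, too few to be tested.

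The death receptor complex gave 3 of 11 above 0 and a median of -0.25, or 0.00 without WT 2 and -0.05 without WT 1. Birc3, which encodes the ubiquitin ligase cIAP2, had 362, 269.7 and 221 CPM in WT and 372.5, 535 and 386 CPM in MUT, without overlap, and a log2 fold change of 0.60 (SE 0.32). Cflar, which encodes the caspase-8 inhibitor FLIP, was the most counted: WT averaged 346 ± 30.1 CPM and MUT 376 ± 118 CPM (0.12, SE 0.33). Cyld, a deubiquitinase of this complex, had -0.40 (SE 0.43), or -0.05 without WT 1.

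Apoptosome and caspase genes gave 4 of 14 above 0 and a median of -0.24. Xiap, an inhibitor of caspases, had 44.4, 38.0 and 54.0 CPM in WT and 66.9, 66.6 and 84.4 CPM in MUT. All MUT libraries were higher, though scaled to library totals alone the genotypes overlapped, and the log2 fold change was 0.68 (SE 0.47, 95% interval -0.34 to 1.69). Casp2 had the reverse order, with 56.0 ± 7.56 CPM in WT and 37.1 ± 8.87 CPM in MUT (-0.60, SE 0.52), and likewise overlapped when scaled to library totals. Vdac2, a mitochondrial channel that binds BAK, had -0.75 (SE 0.47), or -0.34 without WT 2.

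Necroptosis and pyroptosis genes gave 4 of 10 above 0 and a median of -0.06. Zbp1, a nucleic acid sensor that engages RIPK3 and is known to be induced by interferon, had 109.6 CPM in WT 1, 111 in WT 2 and 45.9 in WT 3, and 259.7, 253.6 and 145 CPM in MUT. All MUT libraries were higher, with a log2 fold change of 1.30 (SE 0.44, 95% interval 0.35 to 2.26, edgeR unadjusted p = 0.012, adjusted p = 0.999875). Mlkl, which encodes the pore-forming executor of necroptosis, had 6.09, 6.40 and 3.87 CPM in WT and 8.73, 13.9 and 10.1 CPM in MUT (1.00, SE 1.14). Gsdme, a gasdermin gene, had -2.50 (SE 1.08) with 89.9, 33.2 and 2.29 CPM in WT, and was -1.26 without WT 1. Casp4, a receptor of bacterial lipopolysaccharide and the most counted gene of the list, had 0.65 (SE 0.40), or 0.40 without MUT 2.

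p53 and its target genes, which include regulators that act upstream of Bbc3, Bax, Pmaip1 and Fas, gave 6 of 20 above 0 and a median of -0.38. None passed the test, and the groups did not overlap for 3 of 20, each lower in MUT, beside 3.96% of all genes tested in that direction; 0 of 20 lay higher, beside 5.39%. The mTEC markers had a median of -0.36, and their part in this list was not tested. Perp, a desmosomal gene induced by p53, measured 489.5, 380.2 and 493 CPM in WT and 176, 360.3 and 297 CPM in MUT (-0.71, SE 0.34, 95% interval -1.44 to 0.03, edgeR unadjusted p = 0.057), or -0.47 without MUT 1. Phlda3, an inhibitor of AKT, measured 25.2, 23.1 and 12.02 CPM in WT and 5.38, 4.65 and 9.47 CPM in MUT (-1.63, SE 0.95). Ccng1, which encodes cyclin G1, measured 323, 293.7 and 261 CPM in WT and 260.4, 174 and 252 CPM in MUT (-0.36, SE 0.32, or -0.20 without MUT 2), and its genotypes overlapped under either other scaling.

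Cdkn1a, which encodes the cell cycle inhibitor p21 and was the most counted of the p53 list, had 526, 819 and 525 CPM in WT and 177, 562 and 369.6 CPM in MUT (-0.75, SE 0.40). MUT 2 lay above WT 1 and WT 3, though at each number MUT was lower than WT. That order was picked after its values were seen and was not tested. Without MUT 1 the fitted value was -0.42. The list members with the smallest p were Pidd1, an adaptor of caspase-2, at 2.86 (SE 1.05), and the DNA polymerase gene Polk, at -1.85 (SE 0.78). Pidd1 was highest in MUT 1, with 89.2 CPM against 2.01 to 26.96 in the others, and its difference was 1.66 without MUT 1 and 4.13 without WT 3. Polk was lowest in MUT 1, at 3.87 CPM. Of the 20 genes, 6 had their lowest value in MUT 1 and 8 in MUT 2, beside 17.2% and 16.6% of all genes tested. This list was among those already seen in earlier results of these data, so its direction is not independent evidence.

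**Figure D4:**
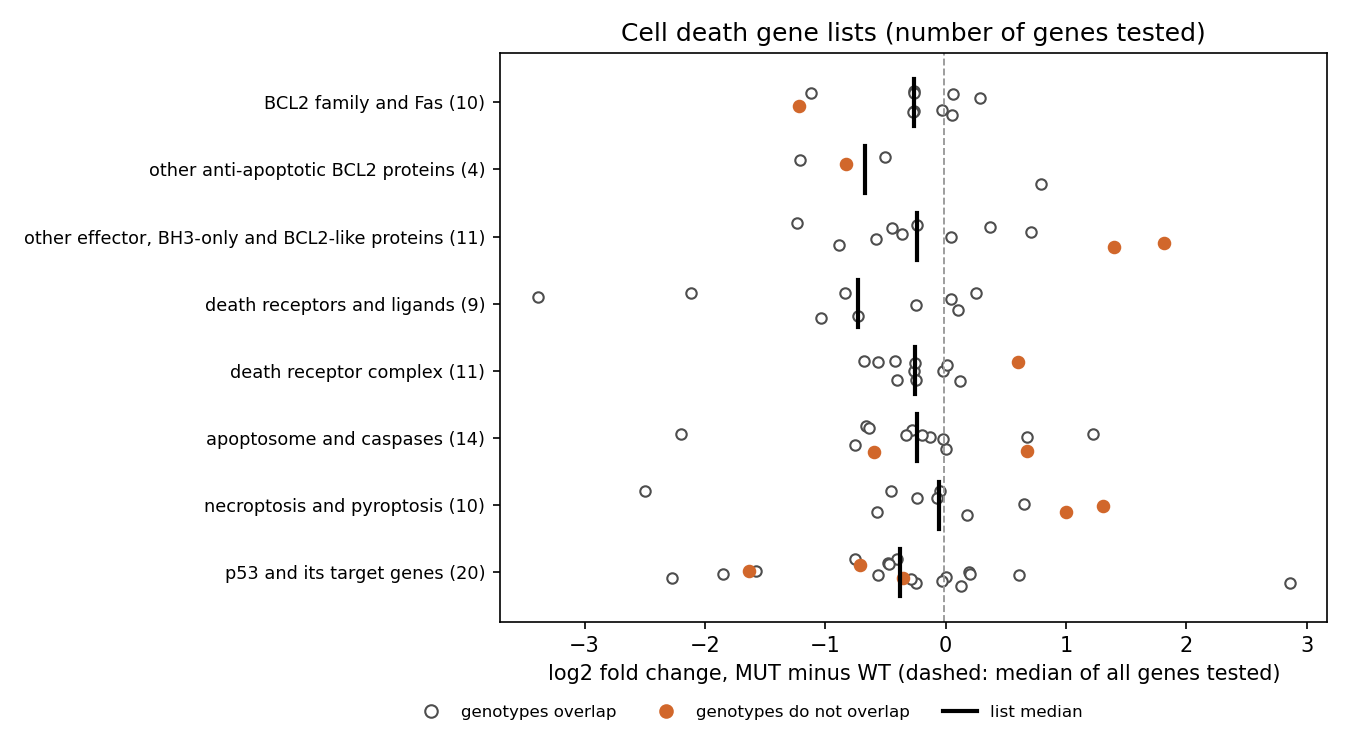
Log2 fold change, MUT minus WT, of every tested gene in the set of 10 and in the 7 lists, with the list median as a black bar and the median of all genes tested as a dashed line. Filled points are genes whose 3 MUT libraries all lay above or all below the 3 WT libraries; the list medians lie between -0.73 and -0.06.

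The pattern of each gene over the 6 libraries was compared with the other genes of the set and the 7 lists, 89 genes in all with the 10, by the root mean square difference of centred log2 CPM. Only Bid varied more than the median gene tested (SD 1.56 against 1.18 on the log2 scale). The other 9 varied less. Pmaip1, Bak1 and Mcl1 had SDs of 0.16, 0.19 and 0.20. At most 0.664% of all genes tested had a lower SD than any of these 3. In CPM per kb these 3 stood higher than 93.0% to 97.5% of all genes tested, and Bid higher than 26.6%. SDs were not compared among genes of like level, so level and steadiness cannot be told apart here. For Fas, chosen after its values were seen, the nearest gene was Perp (0.43) and its own SD was 0.99.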

How the data were processed

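Gene expression was measured by RNA sequencing of mTEC in 3 WT and 3 MUT libraries, grouped by sample title. Per the labels' protocols, cDNA was amplified with the Nugen Ovation method and made into libraries with Nextera XT; no molecular identifiers are described, so reads are not independent molecules. The authors deposited raw read counts per Ensembl gene ID, not normalized. The submitters' processing notes list the build GRCm38 and the tools DESeq2 1.26.0 and STAR 2.4.2a. How reads were counted, with which annotation and strand, is not given in the sources used here.

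Of 43432 gene IDs, 42462 were matched to a symbol. Coordinates and lengths are from GENCODE M21 (GRCm38). The test was edgeR 4.0.16 in R 4.3.3 (TMM, filterByExpr, robust quasi-likelihood F-test, genotype as the only term, Benjamini-Hochberg at 0.05), tested on simulated data. Standard errors are the log2 fold change over the square root of F, and 95% intervals use the fit's total degrees of freedom. A gene did not overlap when all MUT CPM values lay above, or all below, all WT values. Totals ran from 19934513 to 23366238 counts; with amplified reads they do not bound the sampling error of molecules.

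The 10 genes and all lists were chosen with earlier results of these data known. The rule named the 10, the 2 genes with the smallest p and the most counted gene of each of the 7 lists, and the 2 most counted genes of each marker list, with markers at 0. It also named, for genes more variable than the median gene, the 2 nearest in pattern. The 14 dissociation and immediate-early genes were led by Egr1 and Zfp36. Alternatives were a replicate block, DESeq2 size factors, no filter, a stricter filter, DESeq2 1.42.0, limma-voom 3.58.1, each library left out, and longest transcript lengths. Leaving out both libraries numbered 2, and the other scalings of CPM, were chosen after seeing the data. No protein sequences were used here, and the genes nearest to Bid are not reported here.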

Additional observations from a re-analysis of the deposited data

How the results depend on the processing

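The count of 0 of the 10 genes held in all 13 alternatives. The count of 0 among all genes became 1 with the replicate block, 73 without a filter on low counts and 116 with DESeq2, and the cause was not tested. It was 0 to 0 with any 1 library left out, for all genes and for the 10. Over all genes the median difference, -0.01 on the log2 scale, became 0.16 when no filter was applied and 0.15 in DESeq2.

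Deviations from the group means correlated at 0.059 to 0.13 between libraries sharing a number and at -0.093 to 0.002 between libraries of different numbers. The labels do not say that a number marks a shared batch. Each WT source name ends like that of the MUT library with its number, but the labels do not explain this ending. The numbers were not taken to pair the samples. However, the deviations of 6 of 6 libraries were closest to those of the library with their number in the other genotype. The main test and the statements of overlap do not allow for variation shared within a number. With the replicate block Bid went from -0.27 to 0.45 and Tnf from 0.11 to -0.13, and no gene of the 10 was called.

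Bak1, Bcl2l1, Bcl2l11 and Fas kept their direction in all 13 alternatives. The remaining 6 changed sign in at least 1, all within the spread between libraries. With limma-voom Bid was 0.74 and Tnf -0.15. Leaving out 1 library gave ranges of -0.51 to 0.22 for Bcl2, -0.15 to 0.14 for Mcl1, -0.32 to 0.38 for Bax, -0.62 to 0.053 for Bbc3, -0.055 to 0.197 for Pmaip1, -0.83 to 0.83 for Bid, -0.65 to 0.038 for Bnip3l, -2.70 to 0.96 for Ngfr, -0.92 to 0.65 for Tnf and -0.038 to 0.36 for Cflar. Without both libraries numbered 2, Bcl2 was 0.12, Bax -0.49, Pmaip1 -0.038, Tnf -0.37 and Cflar -0.019. Tnfsf15 passed the threshold without the filter (-3.38, edgeR adjusted p = 0.014), while its value without WT 2 was -0.22. The medians of other effector, BH3-only and BCL2-like genes ran from -0.64 without MUT 1 to 0.61 without WT 3.

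Bid had 9 counts in its lowest library. The spread between 3 libraries per genotype set the precision, with a median SE of 1.03 over all genes tested.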

Other observations

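Genes for inducible HSP70, a heat shock protein, were at similar levels in libraries that share a replicate number. Hspa1a, chosen after its values were seen, measured 1579 and 906 CPM in WT 1 and MUT 1, 235 and 211 CPM in WT 2 and MUT 2, and 60.1 and 55.5 CPM in WT 3 and MUT 3. Its near-identical neighbour Hspa1b, whose reads the counting could have divided, measured 564 and 352, 63.5 and 91.5, and 30.6 and 19.3 CPM in the same pairs. All 14 heat shock and immediate-early genes together, often raised by tissue dissociation, summed to 11347, 8841 and 7667 CPM in WT and 8837, 10377 and 6633 CPM in MUT. In none of the 10 genes of the set did library 1 exceed library 2 and library 2 exceed library 3 in both genotypes. This strict order cannot show whether the 10 genes varied with the replicate number, which was not tested.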
